A study of Mus musculus with 21 samples.

Results

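The oogenesins Oog1, Oog2, Oog3 and Oog4 and 4 further oocyte transcripts, E330017A01Rik, E330020D12Rik, Gm13041 and Gm13058, were followed across full-grown mouse oocytes carrying different doses of Kif11. They are 8 of the 54232 genes of the count table and were found by matching their gene symbols to Ensembl gene identifiers. They were chosen by levels measured in these same libraries, and the contrast behind the choice is not recorded, so their levels and differences are a description and no test of them is given. E330017A01Rik and Oog3 were among the most abundant transcripts of the cells, E330020D12Rik was a rare one, and the transcripts with the widest spread over the libraries were the annotated pseudogenes Gm13041 and Gm13058 and the noncoding E330020D12Rik, not the oogenesins themselves.

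Oogenesins belong to the PRAME family, whose proteins are built of leucine-rich repeats, and many members of that family sit as tandem copies in the mouse genome and are transcribed in the oocyte. A full-grown oocyte at the germinal vesicle stage (arrested in meiotic prophase, with an intact nucleus) makes almost no new RNA, so its transcripts are a store laid down during growth and used or degraded during maturation and after fertilisation. Near-identical copies make these genes hard to count from short reads, since a read that fits several copies equally well has no unique position.

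Kif11 encodes kinesin-5, a microtubule motor that pushes spindle poles apart, and the study set oocytes with reduced Kif11 dose beside control oocytes. Poly(A) RNA of 21 libraries of 3 oocytes each was sequenced from females of 3 to 4 months primed with equine chorionic gonadotropin or HyperOva, in lines made on the C57BL/6 background. The groups were wt/fl (a wild-type and a floxed Kif11 allele without Cre, the controls, 4 libraries), wt/fl Spo11-Cre (5 libraries), fl/del (a floxed and a constitutively deleted allele without Cre, 4 libraries), fl/del Spo11-Cre (4 libraries), fl/fl Gdf9-Cre (2 floxed alleles, 2 libraries) and fl/fl Zp3-Cre (2 libraries). Spo11-Cre acts from early meiotic prophase, whereas Gdf9-Cre and Zp3-Cre are driven by promoters of the growing oocyte. Every library thus carried at least 1 floxed allele, and no library was Cre-positive without one. A mouse gave 1 or 2 libraries, so errors between libraries partly measure technical spread. By library name, the 4 wt/fl libraries fall under 2 prefixes, as do those of fl/del and of fl/del Spo11-Cre. The wt/fl Spo11-Cre libraries fall under 3. What a prefix stands for is not given in the labels. The methods describe 17 libraries, which are those other than the fl/fl ones, and for the fl/fl groups the driver, the genotype and the set of libraries cannot be told apart. Because each library pooled whole oocytes, fewer cells with a transcript and less of it per cell cannot be told apart.

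The 250 bases before the RefSeq start site of each oogenesin (GRCm38.p6) are shown because the 4 genes, on 2 chromosomes, resemble one another there. Capitals mark TAATTG (the core of homeodomain sites), CANNTG (the E-box) and TATAAA (the TATA box), each searched on both strands.
Oog1: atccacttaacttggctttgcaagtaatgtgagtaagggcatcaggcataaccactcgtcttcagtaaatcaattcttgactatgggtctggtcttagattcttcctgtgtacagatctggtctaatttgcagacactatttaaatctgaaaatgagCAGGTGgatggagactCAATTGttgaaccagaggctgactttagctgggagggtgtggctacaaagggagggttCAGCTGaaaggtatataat
Oog2: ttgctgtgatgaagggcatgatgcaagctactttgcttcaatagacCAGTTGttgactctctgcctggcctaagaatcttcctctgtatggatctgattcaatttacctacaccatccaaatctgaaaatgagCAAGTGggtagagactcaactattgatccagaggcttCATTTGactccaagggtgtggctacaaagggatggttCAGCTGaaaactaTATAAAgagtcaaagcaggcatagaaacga
Oog3: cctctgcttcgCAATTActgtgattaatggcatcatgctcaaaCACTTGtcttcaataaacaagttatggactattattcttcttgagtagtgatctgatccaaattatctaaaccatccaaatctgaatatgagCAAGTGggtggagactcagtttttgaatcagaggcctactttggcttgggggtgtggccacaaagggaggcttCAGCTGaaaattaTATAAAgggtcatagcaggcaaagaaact
Oog4: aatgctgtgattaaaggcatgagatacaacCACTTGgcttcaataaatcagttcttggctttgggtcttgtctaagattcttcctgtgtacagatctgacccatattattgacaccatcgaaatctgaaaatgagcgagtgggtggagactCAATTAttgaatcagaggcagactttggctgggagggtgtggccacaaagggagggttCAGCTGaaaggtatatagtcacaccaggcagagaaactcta
The Oog1 stretch lies at chr12:87602415-87602664 on the plus strand and the Oog2 stretch at chr4:144190467-144190716 on the plus strand. The Oog3 stretch lies at chr4:144162652-144162901 and the Oog4 stretch at chr4:143450325-143450574, both on the minus strand. Over 300 bases, with 50 after the start site, pairs of oogenesins were 64.8% to 76.7% identical, the closest being Oog2 and Oog4. The promoter of E330020D12Rik, the only other one of the 8 genes with an entry in the promoter table, was 42.6% to 47.9% identical to them and richer in G and C (57.6% of its 250 bases, against 40.4% to 44.0%).

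TAATTG, with no base shared with another marked motif, occurred in Oog3, starting 239 bases before the start site, and in Oog4, starting 99 bases before it. TATAAA occurred in Oog2 and Oog3, at 30 and 29 bases before the start. CANNTG occurred 3 times in Oog1, 4 times in Oog2, 3 times in Oog3, 2 times in Oog4 and 2 times in E330020D12Rik. Among all 32851 promoters of that length in the table, 8.0% held TAATTG, 13.6% TATAAA and 72.3% CANNTG. The longest run common to the 4 oogenesins was TTCAGCTGAAA, which contains the E-box CAGCTG and starts 21 (Oog1), 45 (Oog2), 44 (Oog3) and 43 (Oog4) bases before the start site. That run, chosen after the sequences were seen, was found on either strand in 17 of the 32851 promoters (0.0518%). Of these, 8 were those of the 4 oogenesins, Gm2042, Pramel23, Pramel26 and Pramel32. The other 9 were of genes neither so named nor on the list of PRAME relatives used below, such as Kcnj13, Lcn15 and Pik3ip1. A match of letters is a description of the sequence, not of a bound site.

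Oog2, Oog3, Oog4, Gm13041 and Gm13058 lie within 759771 bases of chromosome 4 (143437164 to 144196934), in a span with 33 annotated genes of which 17 are on the list of PRAME relatives used below and 22 had counts in at least 3 libraries. Oog4 (ENSMUSG00000047799, minus strand) stands at one end of the span and Oog2 (ENSMUSG00000066030, plus strand) at the other. Oog3 (ENSMUSG00000050810) occupies 144157557 to 144162663, Gm13041 (ENSMUSG00000083403) 143499435 to 143502095 and Gm13058 (ENSMUSG00000081523) 143595062 to 143597611. Oog1 (ENSMUSG00000096576) lies on chromosome 12 at 87602688 to 87608850. Gm13041 and Gm13058 are annotated as unprocessed pseudogenes, that is, as duplicated gene copies that kept their introns but are not expected to encode a full protein.

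E330017A01Rik (ENSMUSG00000055789, chromosome 16, 58635167 to 58638739, minus strand) is annotated as protein-coding, and its 1108-base transcript aligned to no other gene's transcript (BLAST, E-value limit 1e-10). E330020D12Rik (ENSMUSG00000073538, chromosome 1, 153404827 to 153414233, minus strand) is annotated as a processed transcript without a protein. Over 940 bases, 47.9% of its longest transcript, it was 83.8% identical to the mRNA of Bzw2, its best match among 72 genes with an alignment to it. On the annotated gene models no other gene overlapped any of the 8 on either strand.

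**Figure D1:**
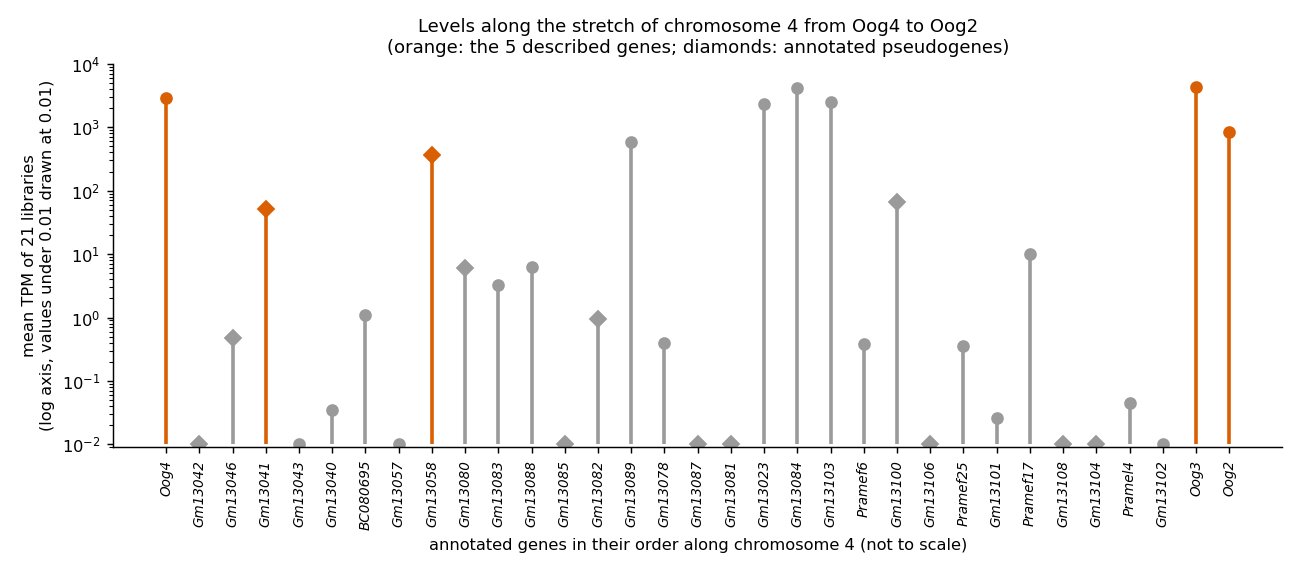
Mean level in the authors' TPM (log axis) of the annotated genes in the chromosome 4 span, in their order along the chromosome, with the 5 described genes in colour. Genes without a count and those of the lowest levels are drawn at one common floor. Oog4 and Oog2 stand at the ends of the span, and highly and weakly expressed copies lie next to one another.

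The other copies limit what a count can say. Oog1 was 99.6% identical to Gm2042, a PRAME relative also on chromosome 12, over 2442 bases, and 78.0% of all 100-base windows of the Oog1 exons occurred unchanged in another gene. The share was 35.0% for Gm13058, all of it in Gm13100, 16.1% for Oog2, all of it in Gm13084, and 10.8% for Oog3, all of it in Gm4350. It was 2.74% for Gm13041, 0.183% for E330020D12Rik and 0 for Oog4 and E330017A01Rik. The authors counted uniquely mapped reads, and a read that lies wholly in a shared stretch has no unique position, whereas a read or its mate that reaches past such a stretch can have one. How many reads of Oog1, Gm13058 and Oog2 were lost in this way was not measured, and their split from the other copies is uncertain.

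The first 120 coding bases of Oog2 and the matching stretch of Gm13084 are printed to show how little separates such a pair, with capitals at the bases that differ.
Oog2: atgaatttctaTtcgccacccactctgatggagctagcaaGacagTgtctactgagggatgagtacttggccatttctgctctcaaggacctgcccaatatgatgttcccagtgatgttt
Gm13084: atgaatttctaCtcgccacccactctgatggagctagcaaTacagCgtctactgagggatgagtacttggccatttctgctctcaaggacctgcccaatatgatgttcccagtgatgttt
The Oog2 stretch is chr4:144193999-144194118 on the plus strand and that of Gm13084 is chr4:143812748-143812867 on the minus strand, and 3 of the 120 bases differ. The first 120 bases of the Gm13058 transcript, at chr4:143597492-143597611 on the minus strand, are the same in Gm13100, at chr4:143913857-143913976 on the plus strand.
Gm13058: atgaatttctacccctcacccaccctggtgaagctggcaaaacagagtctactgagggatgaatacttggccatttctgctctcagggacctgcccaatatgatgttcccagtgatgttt
The first 120 coding bases of Oog1 likewise had 0 differences from Gm2042.

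Levels of different genes were compared by the authors' TPM, which corrects for transcript length. Over the 21 libraries the mean was 6230 ± 700 TPM (SD) for E330017A01Rik, the 11th most abundant gene of the table, and 4366 ± 580 TPM for Oog3, ranked 19th. Oog4 had 2858 ± 390 TPM (rank 38), Oog2 849 ± 110 TPM (rank 165), Gm13058 364 ± 73.4 TPM (rank 463) and Oog1 252 ± 37.4 TPM (rank 713). Gm13041 had 52.0 ± 14.1 TPM (rank 2774) and E330020D12Rik 14.0 ± 8.10 TPM (rank 5911). The annotated pseudogene Gm13058 had a higher TPM than the protein-coding Oog1 in 20 of 21 libraries, although their ranges overlapped. Of their 100-base windows, 78.0% for Oog1 and 35.0% for Gm13058 occur in another gene, so unique reads can understate Oog1 more. Which of the 2 transcripts was more abundant is therefore not settled by these values.

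The order E330017A01Rik, Oog3, Oog4, Oog2, Gm13058, Oog1, Gm13041, E330020D12Rik held in 20 of the 21 libraries, and in 1 library Gm13058 and Oog1 changed places. The ranges of neighbours over all libraries did not overlap between E330017A01Rik and Oog3 (median ratio 1.32), Oog4 and Oog2 (3.31), Oog2 and Gm13058 (2.32) or Oog1 and Gm13041 (5.04). They overlapped between Oog3 and Oog4 (median ratio 1.57), Gm13058 and Oog1 (1.48) and Gm13041 and E330020D12Rik (3.85), although within each library Oog3 exceeded Oog4 and Gm13041 exceeded E330020D12Rik.

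**Figure D2:**
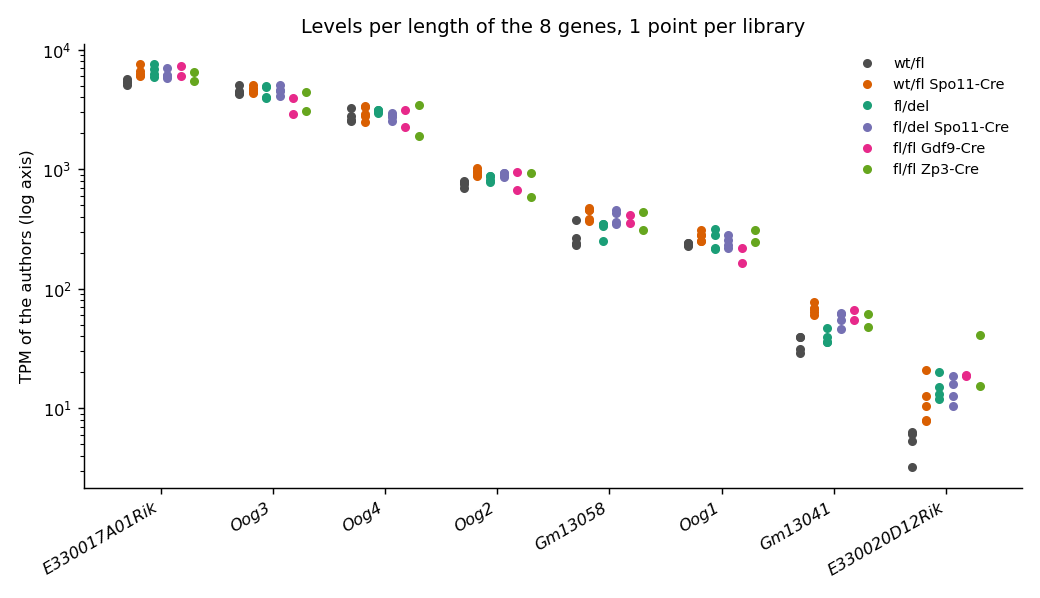
Level of each gene in the authors' TPM (log axis) in each of the 21 libraries, coloured by group. The genes are ordered by their mean, from E330017A01Rik at 6230 TPM to E330020D12Rik at 14.0 TPM, and the points of E330020D12Rik spread the most.

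Groups were compared within a gene by CPM, the count as a share of the library's total times 1000000. The spread over all 21 libraries, as SD in percent of the mean CPM, was 12.8% to 14.4% for the 4 oogenesins and 13.2% for E330017A01Rik, below the median of 17.5% over the 7755 genes with a mean of at least 10 CPM. It was 20.7% for Gm13058, 27.5% for Gm13041 and 56.7% for E330020D12Rik. The last rested on the fewest reads, with 43 to 376 counts per library, whereas Oog3 had 18594 to 64104. Together the 8 genes took 0.806% to 1.11% of all counts of a library, and the 4 oogenesins 0.481% to 0.775%.

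**Figure D3:**
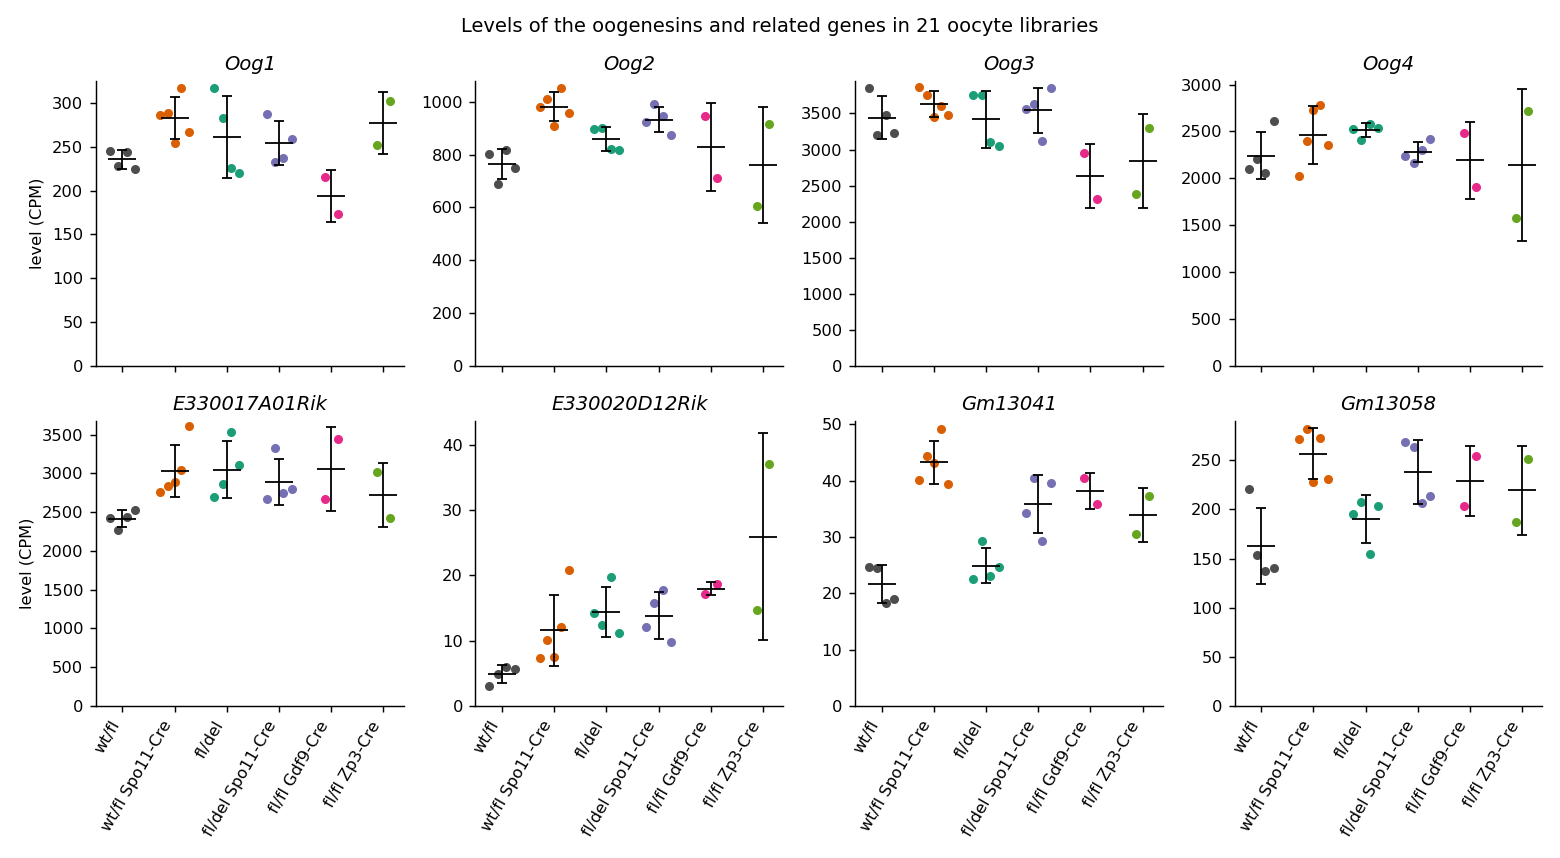
CPM of each gene in every library by group, with the mean as a horizontal mark and the SD as an error line. The 5 wt/fl Spo11-Cre libraries lie above the 4 wt/fl libraries for Gm13041, with 39.5 to 49.1 CPM against 18.3 to 24.6 CPM, while the groups of Oog3 and Oog4 without a fl/fl genotype overlap.

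Among the oogenesins, Oog2 differed most between the groups that share the Spo11-Cre design. Its CPM was 803, 690, 816 and 750 in the wt/fl libraries and 978, 1009, 909, 1052 and 957 in the wt/fl Spo11-Cre libraries, which all lay higher. It was 896, 902, 821 and 817 in fl/del and 922.8, 989, 945 and 872 in fl/del Spo11-Cre, again all above the wt/fl libraries. For fl/del the margin was 816.7 against 816.0 CPM, and in the authors' TPM the lowest fl/del library (778 TPM) lay below the highest control (795 TPM). As a mean, wt/fl Spo11-Cre stood at 128% of wt/fl (981 ± 53.9 CPM, SD, n = 5, against 765 ± 57.4 CPM, n = 4), fl/del Spo11-Cre at 122% and fl/del at 112%. The fl/fl libraries were split within each driver, with 946 and 709 CPM for Gdf9-Cre and 604 and 914 CPM for Zp3-Cre, and spanned the levels of all other groups.

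Oog1, an oogenesin first described for its transcript in oocytes and early embryos, had 244.5, 228.1, 244.0 and 224.7 CPM in wt/fl and 286.1, 288.8, 253.9, 317.0 and 266.3 CPM in wt/fl Spo11-Cre. The Cre-positive libraries all lay above the controls, at 120% as a mean. The fl/del libraries ran from 219.7 to 317.0 CPM and those of fl/del Spo11-Cre from 231.9 to 286.6 CPM, and both overlapped with wt/fl. The fl/fl Gdf9-Cre libraries had 214.9 and 173.2 CPM, both below every wt/fl library, and the fl/fl Zp3-Cre libraries had 252.4 and 301.9 CPM, both above. Summed with the CPM of Gm2042, of which pair Oog1 held a median of 43.2% of the counts, the wt/fl Spo11-Cre libraries reached 114% of the controls and overlapped with them. Gm10436, 98.8% identical to Oog1 over 2451 bases, is not part of that sum and was more abundant. It had 1934 ± 210 CPM in wt/fl and 2148 ± 116 CPM in wt/fl Spo11-Cre (111%), with overlapping libraries.

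Oog3 and Oog4 had overlapping libraries in all 4 groups of the Spo11-Cre design. Oog3 measured 3850, 3204, 3483 and 3228 CPM in wt/fl, and the other groups of that design ran from 3055 to 3865 CPM. It was below all 17 of these libraries in 3 of the 4 fl/fl libraries, at 2947 and 2317 CPM with Gdf9-Cre and 2383 CPM with Zp3-Cre, whereas the other Zp3-Cre library had 3302 CPM. Oog4 measured 2103, 2204, 2057 and 2609 CPM in wt/fl and 2025 to 2778 CPM in the other groups of that design. Its fl/fl libraries again disagreed, at 2485 and 1906 CPM for Gdf9-Cre and 1576 and 2719 CPM for Zp3-Cre. The first fl/fl Zp3-Cre library had the lowest level of all 21 for both Oog2 and Oog4.

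E330017A01Rik was lowest in the controls, with 2420, 2265, 2440 and 2531 CPM. The wt/fl Spo11-Cre libraries had 2766, 2842, 2893, 3041 and 3614 CPM, those of fl/del 2691, 2860, 3539 and 3105 CPM and those of fl/del Spo11-Cre 2675, 3323, 2743 and 2801 CPM. All 13 of these libraries, with and without Cre, were above the 4 controls, and the means were 126%, 126% and 120% of wt/fl. The fl/fl Gdf9-Cre libraries, at 2672 and 3440 CPM, were also above the controls, while the Zp3-Cre libraries, at 3012 and 2424 CPM, were not both above. The fl/del libraries, without Cre, were thus in the range of the Cre-positive ones.

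Gm13041 followed the presence of Cre most closely. Its wt/fl libraries had 24.6, 24.4, 18.3 and 19.1 CPM and its wt/fl Spo11-Cre libraries 40.2, 44.4, 43.1, 49.1 and 39.5 CPM. The mean of the latter was 43.3 ± 3.86 CPM (SD, n = 5), or 200% of the control mean of 21.6 ± 3.41 CPM (n = 4). Of the controls, the libraries at 24.6 and 24.4 CPM share a name prefix, and so do those at 18.3 and 19.1 CPM. The fl/del libraries, which carry no Cre, had 22.5, 29.3, 23.0 and 24.6 CPM and overlapped with the controls. The fl/del Spo11-Cre libraries had 34.2, 40.4, 29.2 and 39.6 CPM, or 166% of the control mean, above every control and overlapping with fl/del by 1 library. The fl/fl libraries had 40.4 and 35.9 CPM with Gdf9-Cre and 30.5 and 37.4 CPM with Zp3-Cre, all above the controls and fl/del.

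Gm13058 had 220, 153, 137 and 141 CPM in wt/fl, and the first of these libraries stood above the other 3. In wt/fl Spo11-Cre it had 271, 282, 228, 273 and 230 CPM, all higher, with a mean of 158% of wt/fl (257 ± 25.7 CPM, n = 5, against 163 ± 38.9 CPM, n = 4). In the authors' TPM the lowest of these libraries (372.2 TPM) lay just below the highest control (374.1 TPM). In fl/del it had 196, 207, 154 and 204 CPM, within the range of the controls. In fl/del Spo11-Cre it had 269, 264, 206 and 214 CPM, and in fl/fl it had 204 and 254 CPM with Gdf9-Cre and 188 and 251 CPM with Zp3-Cre. The highest control library overlapped with each of these last groups.

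Gm13100, the copy closest to Gm13058 (95.8% identical over 1446 bases), had 28.5 ± 6.54 CPM in wt/fl (n = 4) and 47.8 ± 8.39 CPM in wt/fl Spo11-Cre (n = 5), with no overlap between the libraries. It had 28.4 ± 9.38 CPM in fl/del (n = 4) and 46.5 ± 9.51 CPM in fl/del Spo11-Cre (n = 4). Gm13058 held a median of 84.9% of the counts of the pair, with 78.0% to 90.7% over the libraries. Relative to the controls, the copies added together reached 159% when wt/fl oocytes carried Spo11-Cre and 146% with Gdf9-Cre, both without overlap of libraries. They reached 149% when fl/del oocytes carried Spo11-Cre, 133% with Zp3-Cre and 114% in fl/del without Cre, each overlapping with the controls. The sum does not depend on how unique reads were split between the copies, but reads that fit both equally well stay uncounted. The sum of Oog2 and Gm13084 reached 124% of the controls in wt/fl Spo11-Cre, without overlap of libraries.

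**Figure D4:**
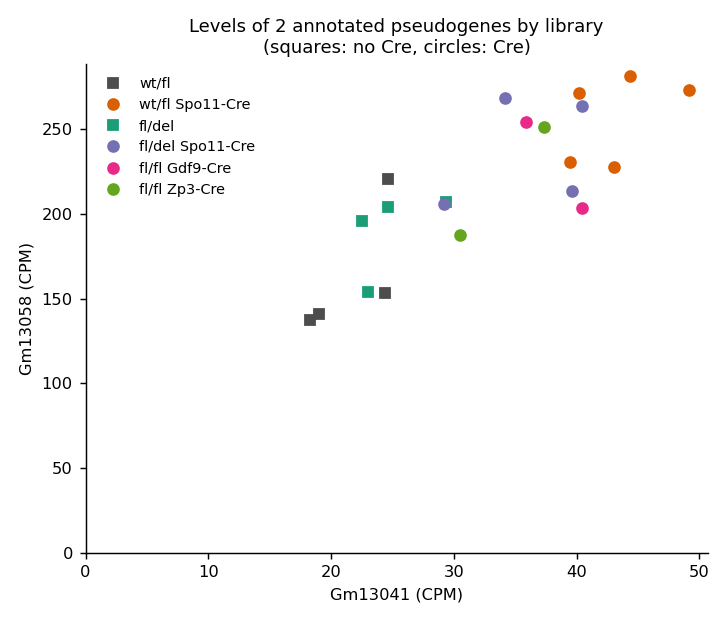
Gm13058 CPM against Gm13041 CPM in the 21 libraries, coloured by group, with separate symbols for libraries with and without Cre. The 8 Cre-free libraries lie at 18.3 to 29.3 CPM of Gm13041 and 12 of the 13 Cre-carrying libraries lie above that range.

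Set out by Cre alone, 12 of the 13 Cre-carrying libraries were above all 8 Cre-free libraries for Gm13041, where the Cre-free range was 18.3 to 29.3 CPM and the remaining Cre-carrying library had 29.2 CPM. The number was 10 for Oog2 and 9 for Gm13058. It was 3 for Oog4, 2 for Oog3 and E330020D12Rik, and 1 for Oog1 and E330017A01Rik. This is a regrouping of the same libraries by label, made after the values were seen. Cre-positive libraries also differ in Kif11 dose and, for the fl/fl groups, in the set of libraries. In the library names, all 8 Cre-free libraries carry the letter A and the Spo11-Cre libraries B or C. What the letter stands for is not given, so Spo11-Cre and this letter cannot be told apart.

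E330020D12Rik had the widest relative differences and the fewest reads. Its wt/fl libraries had 3.01, 4.87, 5.99 and 5.62 CPM, from 43 to 79 counts. The wt/fl Spo11-Cre libraries had 7.36, 10.0, 7.53, 12.1 and 20.7 CPM, those of fl/del 14.2, 12.3, 19.7 and 11.2 CPM and those of fl/del Spo11-Cre 12.1, 15.7, 17.7 and 9.81 CPM. All were above the controls, and the means were 237%, 295% and 284% of wt/fl. The fl/fl libraries had 17.2 and 18.6 CPM with Gdf9-Cre and 14.7 and 37.1 CPM with Zp3-Cre, so that all 17 libraries of the other groups exceeded all 4 controls. Within wt/fl Spo11-Cre the fifth library had the highest level of both E330020D12Rik and E330017A01Rik. It was the only library from its name prefix and the only one with the letter C.

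In the fit across all genes (edgeR, with library sizes scaled by TMM), the log2 difference of wt/fl Spo11-Cre from wt/fl was 1.28 ± 0.28 (SE) for E330020D12Rik, 1.03 ± 0.15 for Gm13041, 0.68 ± 0.11 for Gm13058, 0.38 ± 0.08 for Oog2 and 0.35 ± 0.08 for E330017A01Rik. It was 0.29 ± 0.09 for Oog1, 0.16 ± 0.08 for Oog4 and 0.10 ± 0.07 for Oog3. The median over the 8 genes was 0.37, and over all genes 0.03. Without wt/fl Spo11-Cre replicate 5 the difference was 0.94 for E330020D12Rik and 0.27 for E330017A01Rik.

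For fl/del against wt/fl, E330020D12Rik differed by 1.56 ± 0.29, and by 1.39 without wt/fl replicate 1. E330017A01Rik differed by 0.35 ± 0.08 and the others by 0.01 to 0.25, with a median of 0.21 over the 8 genes and 0 over all genes. When fl/del Spo11-Cre was set against the controls, E330020D12Rik differed by 1.50 ± 0.29, Gm13041 by 0.73 ± 0.15 and Gm13058 by 0.55 ± 0.11. These comparisons share the wt/fl libraries, so a low or high control library moves all of them together.

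The comparison of fl/del Spo11-Cre with fl/del has no wt/fl library on either side, although its scaling and errors come from the joint fit of 17 libraries. There the log2 differences were 0.50 ± 0.15 for Gm13041 and 0.30 ± 0.11 for Gm13058 and −0.16 to 0.10 for the other 6, with a median of −0.01. The interaction, which is the difference between the effect of Spo11-Cre in fl/del and in wt/fl oocytes, was below 0 for all 8 genes, from −1.34 ± 0.39 for E330020D12Rik and −0.52 ± 0.21 for Gm13041 to −0.07 ± 0.11 for Oog3, with a median of −0.37 beside −0.01 over all genes. The wt/fl libraries enter it as they enter the other contrasts, and a low wt/fl level by itself makes it negative. All 8 genes were fitted above wt/fl both in wt/fl Spo11-Cre and in fl/del. They were chosen by levels in these same libraries, so their shared sign is a description and was not tested.

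**Figure D5:**
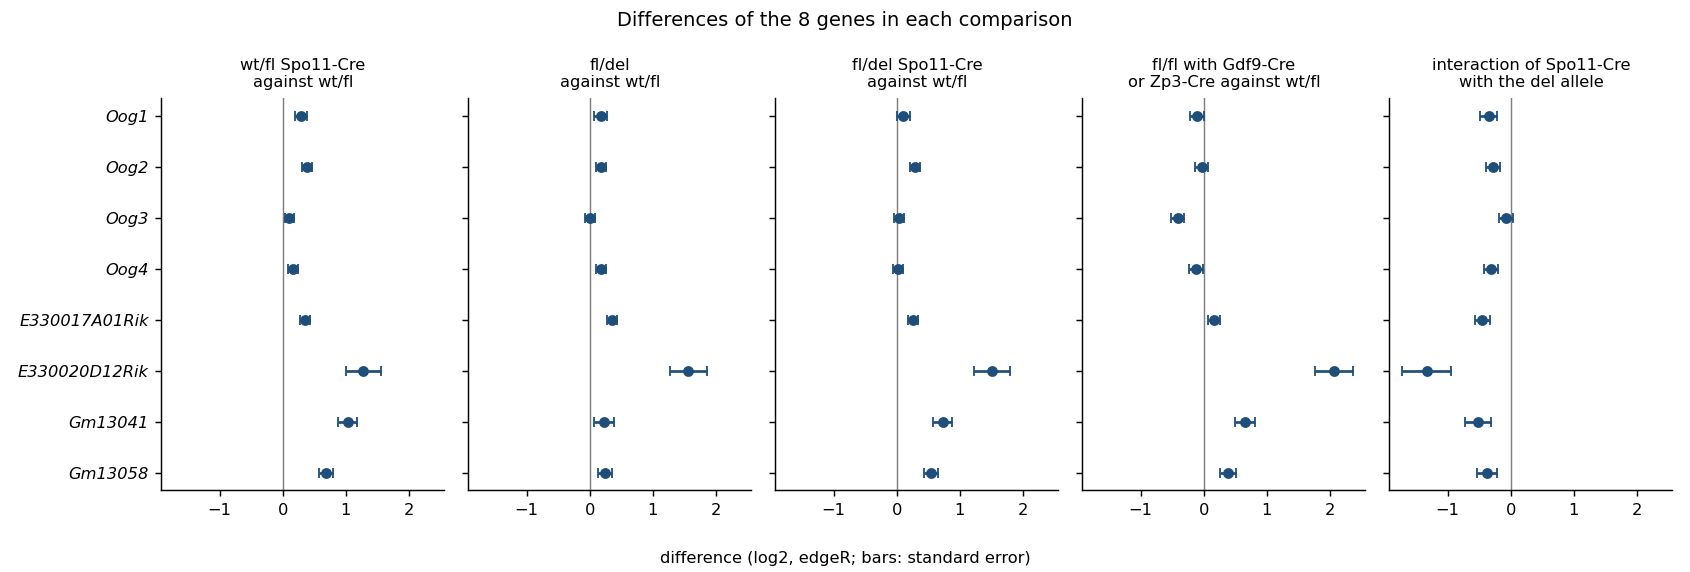
Log2 fold difference of each gene in the comparisons, as fitted over all genes, with the SE as error lines. E330020D12Rik, Gm13041 and Gm13058 lie farthest above 0 in wt/fl Spo11-Cre against wt/fl, at 1.28, 1.03 and 0.68. The interaction, which a low wt/fl level by itself makes negative, lies below 0 for each gene.

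Against wt/fl, the 4 fl/fl libraries together differed by 2.06 ± 0.29 for E330020D12Rik, 0.65 ± 0.16 for Gm13041 and −0.42 ± 0.10 for Oog3. Against fl/del Spo11-Cre, where Cre acts at an earlier stage of the oocyte, Oog3 differed by −0.45 ± 0.10. Gm13041 and Gm13058 differed there by −0.07 ± 0.16 and −0.17 ± 0.13. Between Gdf9-Cre and Zp3-Cre the widest difference relative to its error was that of Oog1, at −0.49 ± 0.16.

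Of 51 other genes of the count table that were listed by symbol as PRAME relatives, 42 had a transcript that aligned to an oogenesin. For the other 9, membership of the family was not checked. The most abundant were E330034G19Rik (5284 TPM), E330021D16Rik (4533 TPM), which both did not align to an oogenesin, Gm13084 (4193 TPM), Gm13103 (2495 TPM), Gm13023 (2284 TPM) and Gm10436 (1631 TPM). In wt/fl Spo11-Cre against wt/fl, 4 of the 33 tested had an adjusted P under 0.05 by edgeR's quasi-likelihood test and are termed called, all higher, beside 2.19% of all 22383 genes tested, with a median over the 33 of 0.16. The number was 2 without wt/fl replicate 2, 6 without fl/del replicate 2 and 1 when all 21 libraries were fitted together. Of the tested relatives that aligned to an oogenesin, 4 of 29 were called in the main fit, all higher. Gm13089 rose by 0.45 ± 0.11 (edgeR adjusted p = 0.00978, 1.29e-05 to 0.0635 over the alternatives), Gm13084 by 0.33 ± 0.07 (edgeR adjusted p = 0.00542, 0.000579 to 0.0716) and C87977 by 0.33 ± 0.08 (edgeR adjusted p = 0.0128, 8.97e-05 to 0.125). C87977 lost its call without wt/fl replicate 1 or 2. E330014E10Rik was called at 2.27 ± 0.61 (edgeR adjusted p = 0.0303, 0.00029 to 0.868), with a mean of 54.8 counts, and differed by 0.46 without wt/fl Spo11-Cre replicate 5. Its call was also lost without any 1 of the 4 wt/fl libraries.

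By edgeR, 0 of 33 relatives were called in fl/del against wt/fl (median 0.12, beside 0.0223% of all genes called), in fl/del Spo11-Cre against wt/fl (median −0.01, beside 0.197%), in fl/del Spo11-Cre against fl/del (median −0.06, beside 0.241%) and in the interaction (median −0.25, beside 0.103%). With the replicate number as a block or without a filter on low counts, 1 was called in the second of these and 2 in the interaction, and leaving out wt/fl replicate 3 also gave 1 in the second. DESeq2 called 0 in all 4. In the fl/fl libraries against wt/fl, Pramef12 rose by 0.80 ± 0.14 (edgeR adjusted p = 0.000192, 3.43e-08 to 0.0612 over the alternatives), a call lost without fl/fl Zp3-Cre replicate 1. Pramef20 fell by 0.39 on the log2 scale (SE 0.10, edgeR adjusted p = 0.0202, 0.000172 to 0.291), a call lost without wt/fl replicate 1, fl/fl Gdf9-Cre replicate 2 or fl/fl Zp3-Cre replicate 1. These were the 2 called of 35 tested, beside 2.79% of all 23225 genes. Against fl/del Spo11-Cre, 1 of 35 was called higher and 2 lower, beside 2.9% of all genes. Pramef12 rose by 0.52 ± 0.14 (edgeR adjusted p = 0.0289, 3.18e-05 to 0.695 over the alternatives) and Pramef20 fell by 0.37 on the log2 scale (SE 0.10, edgeR adjusted p = 0.0236, 0.000234 to 0.288). Both calls were lost without fl/del Spo11-Cre replicate 1, 3 or 4, fl/fl Gdf9-Cre replicate 2 or fl/fl Zp3-Cre replicate 1, and without fl/fl Zp3-Cre replicate 2 the number called lower was 5. Gm13103, the closest copy of Oog3 (87.8% identical), fell by 0.46 on the log2 scale (SE 0.10, edgeR adjusted p = 0.00235, up to 0.0372 over the alternatives), beside −0.45 for Oog3 itself. Between Gdf9-Cre and Zp3-Cre edgeR and DESeq2 called 0 of 35, beside 0.891% of all genes by edgeR, and 2 were called higher and 1 lower without fl/fl Zp3-Cre replicate 2.

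Genes of other families with transcripts in the oocyte were read beside these genes from a list of 60. In wt/fl Spo11-Cre against wt/fl, 4 were called higher and 3 lower, beside 2.19% of all genes, with a median of 0.09. The number called higher was 0 without wt/fl replicate 1, 1 without wt/fl replicate 2, 2 without wt/fl Spo11-Cre replicate 5 and 7 without wt/fl Spo11-Cre replicate 1, and it was 9 with DESeq2 and 0 when all 21 libraries were fitted together. Nobox, a homeobox regulator of oocyte genes, fell by 0.42 on the log2 scale (SE 0.09, edgeR adjusted p = 0.00305, up to 0.0257 over the alternatives), and Oas1c by 0.36 (SE 0.08, edgeR adjusted p = 0.00334, up to 0.027). Nlrp9b rose by 0.36 ± 0.08 (edgeR adjusted p = 0.00743, up to 0.194), a call lost without wt/fl replicate 1. Ooep, a subunit of the subcortical maternal complex, rose by 0.33 ± 0.09 (edgeR adjusted p = 0.0292, up to 0.169), a call lost without wt/fl replicate 1, 2 or 4 or wt/fl Spo11-Cre replicate 5. The fl/del oocytes without and with Spo11-Cre were each set against wt/fl. Of the 60, 0 were called by edgeR with the filter used here and by DESeq2. By edgeR, 0.0223% of all genes were called in the first comparison and 0.197% in the second. With the replicate block 1 was called higher in the first and 3 lower in the second, without a filter on low counts 1 higher and 2 lower, and in the second 1 was called lower without wt/fl replicate 1 and 2 without fl/del Spo11-Cre replicate 1. In fl/del Spo11-Cre against fl/del 1 of the 60 was called, beside 0.241% of all genes. This gene, Nlrp4e, fell by 0.47 on the log2 scale (SE 0.11, edgeR adjusted p = 0.0255, up to 0.15). The call was lost without any 1 of 6 of the 8 libraries compared.

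In the fl/fl libraries, 15 of the 60 were called lower and 3 higher against wt/fl, beside 2.79% of all genes, with a median of −0.21. Against fl/del Spo11-Cre 16 were called lower and 1 higher, beside 2.9% of all genes, with a median of −0.14. With library totals in place of TMM these were 11 lower and 6 higher, and 13 lower and 4 higher. Without fl/fl Zp3-Cre replicate 1 the numbers called lower were 9 and 6, without fl/fl Zp3-Cre replicate 2 they were 30 and 27, and without fl/del Spo11-Cre replicate 1 or 2 the second was 10. Zfp57, a zinc-finger protein that maintains imprints, fell by 0.80 on the log2 scale against wt/fl (SE 0.11, edgeR adjusted p = 6.63e-07, up to 0.000246) and Nlrp4g by 0.81 (SE 0.16, edgeR adjusted p = 0.000543, up to 0.0312). Khdc1a rose by 1.31 ± 0.26 (edgeR adjusted p = 0.00083, up to 0.175), a call lost without fl/fl Zp3-Cre replicate 1.

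By likeness over the 21 libraries (Pearson correlation of log2 CPM, among 7747 genes with a mean of at least 10 CPM), the gene closest to the mean of the 8 was Gm13084 (r = 0.82), followed by Adk (0.81), Cyp7b1 (0.79), Zfp639 (0.78) and Gpatch11 (0.77). Gm13084 was also closest to Oog2 (0.91), the gene with which it shares sequence. Gm13100 was closest to Gm13041 (0.84), and Hnrnpc to Gm13058 (0.82). Oog1 was closest to Gm10436 (0.79), a PRAME relative 98.8% identical to it over 2451 bases. Oog3 was closest to Ica1 (0.89), Oog4 to Zp2 (0.85), which encodes a protein of the zona pellucida, E330017A01Rik to Cox6b2 (0.93) and E330020D12Rik to Neil2 (0.74). Among the 8 genes, Gm13041 and Gm13058 correlated at r = 0.84, and at 0.54 once group means were removed. Oog1 and Oog3 correlated at 0.67 and, within groups, at 0.76, whereas Oog1 and E330017A01Rik ran in opposite directions within groups (r = −0.68). The libraries share depth and groups, so these values describe this set of libraries only.

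Library totals ran from 7205010 to 18454549 counts, and the 4 fl/fl libraries and fl/del replicate 3 were the shallowest. Kif11 was at 23.8 to 43.2 CPM in wt/fl, 17.6 to 30.5 CPM in wt/fl Spo11-Cre, 7.49 to 14.6 CPM in fl/del, 1.08 to 2.70 CPM in fl/del Spo11-Cre, 4.90 to 5.11 CPM with Gdf9-Cre and 4.27 to 7.95 CPM with Zp3-Cre. All 12 oocyte markers were detected and summed to 19151 to 26183 CPM. Of 18 follicle cell markers 5 had a mean of at least 1 CPM and the sum was 75.4 to 127 CPM, mostly Cyp19a1 and Nr5a2, while Foxl2 and Ptx3 were at 0 in all libraries and Fshr had a median of 0.558 CPM. Of 8 markers of blood, endothelium, stroma and immune cells 1, Pecam1, had a mean of at least 1 CPM. Marker sums overlapped between the wt/fl and the wt/fl Spo11-Cre libraries (follicle cell markers 86.2 to 127 CPM and 75.4 to 105 CPM).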

How the data were processed

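SMART-seq v4 poly(A) libraries were, per the authors' methods and processing notes, trimmed with fastp and aligned to GRCm38 with HISAT2 2.2.1. The authors deposited counts of uniquely mapped reads per Ensembl gene (featureCounts 2.0.3, all exons, a kit without strand) and a table of TPM. A second deposited table of counts, made together with Kif11 exon 22, served as an alternative; counts in the first table were a median of 1.96 times those in the second, and whether reads or read pairs were counted is not given in the sources used here. Symbols matched 54079 of 54232 identifiers. CPM was the count over the library total.

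Genes with a count in at least 3 libraries entered a joint fit in edgeR 4.0.16 under R 4.3.3 (TMM, quasi-likelihood test, Benjamini-Hochberg, threshold 0.05), with 17 libraries for the contrasts of the Spo11-Cre design and 21 for those with fl/fl. On simulated counts with 200 changed genes, 92% were recovered between wt/fl Spo11-Cre and wt/fl (84.9% of changes of 2-fold, 99.0% of 4-fold) and 90% for fl/fl against wt/fl. The changed genes were drawn above a floor of mean CPM, and each library was simulated as independent of the others. The simulated spread came from the 17 libraries of the Spo11-Cre design, also for fl/fl. The 90% therefore does not cover a wider spread among the fl/fl libraries. Recovery of changes under 2-fold, or with libraries that share a mouse, was not measured. DESeq2 1.42.0 was an alternative. Transcripts were aligned with BLAST 2.17.0. Promoters are RefSeq sequences of GRCm38.p6, matched by symbol for 5 of the 8 genes.

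The members and lists were chosen with earlier results of these data known. Beside the 8 genes, the rule named the 6 relatives of highest TPM, up to 4 called genes of each list per comparison by size of change (mean count at least 10), the 5 genes most correlated with the mean of the members and the closest gene to each, over log2(CPM + 1). Gm2042, Gm13084, Gm13100 and Gm13103 are also given as best sequence matches, chosen after values were seen.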

Additional observations from a re-analysis of the deposited data

Results flagged for a closer look

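In none of the 32 sets of 4 or 5 libraries (each of the 8 genes in each group of that size) was the highest or lowest library farther from the rest than Dixon's limit.

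Nlrp9b and Ooep, outside the 8 genes, stood out because the effect of Spo11-Cre differed between wt/fl and fl/del oocytes by the test of the interaction itself. They were the 2 called in the list of 60 oocyte family genes, beside 0.103% of all genes. Nlrp9b, of an oocyte-specific NLRP group, had an interaction of −0.57 ± 0.12 (log2, SE, edgeR adjusted p = 0.0253), with adjusted P from 0.000937 to 0.34 over the alternatives. The call was lost without wt/fl replicate 1, fl/del replicate 2, fl/del replicate 3 or fl/del Spo11-Cre replicate 4. Ooep had −0.56 ± 0.13 (edgeR adjusted p = 0.0485, 0.000169 to 0.194 over the alternatives) and kept its call in 12 of 26 settings. Of the settings that lost it, 11 left out 1 library.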

How the results depend on the processing

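The log2 differences of the 8 genes that changed sign under an alternative were 0.15 or smaller in size in the main fit, with 1 exception. That of E330020D12Rik between Gdf9-Cre and Zp3-Cre moved from −0.52 to 0.36 without fl/fl Zp3-Cre replicate 2. Between these drivers others swung widely with 1 Zp3-Cre library left out. Oog4 ran from −0.32 to 0.56, Oog2 from −0.15 to 0.54, Oog3 from −0.34 to 0.23 and Gm13058 from −0.14 to 0.37. In wt/fl Spo11-Cre against wt/fl, that of Gm13041 was 0.96 to 1.09 with 1 library left out and that of Oog2 0.34 to 0.42. The summed CPM of the 8 genes stood at 99.0% of wt/fl with Gdf9-Cre, and their summed TPM at 102%.

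Numbers of called genes moved more. With DESeq2 they were 931, 25 and 166 for wt/fl Spo11-Cre, fl/del and fl/del Spo11-Cre, each against wt/fl, then 90 between the fl/del oocytes with and without Spo11-Cre, 95 for the interaction, 1109 and 1065 in fl/fl against wt/fl and against fl/del Spo11-Cre, and 381 between Gdf9-Cre and Zp3-Cre. Without a filter on low counts they were 742, 80, 185, 134 and 138 in the first 5 of these. With filterByExpr they were 2 in fl/del, 29 in fl/del Spo11-Cre against wt/fl and 2 for the interaction. With other libraries in the fit they were 252 in wt/fl Spo11-Cre, 4 for the interaction, 238 and 323 in fl/fl and 7 between the drivers. Libraries summed by prefix gave 11 for the interaction and 233 and 299 in fl/fl. The counts made with Kif11 exon 22 gave 83 in fl/del Spo11-Cre against wt/fl and 42 for the interaction, and library totals without TMM gave 40 for the interaction. Leaving out 1 library gave 179 to 592, 1 to 18, 30 to 73, 37 to 67, 4 to 60, 303 to 1353, 416 to 1263 and 127 to 398 in the order of the DESeq2 values.

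Replicate numbers did not pair the libraries: deviations of same-numbered libraries correlated at −0.336 to 0.27 (median −0.00675), and 6 of 16 libraries correlated best with their own number. With the replicate number as a block, 96 genes were called between fl/del and wt/fl, 230 between fl/del Spo11-Cre and wt/fl, 143 between the fl/del oocytes with and without Spo11-Cre and 96 for the interaction.

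Depth limits E330020D12Rik most, with 43 counts in its lowest library, and reads of Oog1, Gm13058 and Oog2 lost to near-identical copies were not measured.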
